A study of Mus musculus with 8 samples.

Results

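Cytosolic ribosomal protein genes were followed in ICAM1high and ICAM1low neutrophils sorted from mouse mammary tumours. The genes were taken by name and biotype alone: every protein-coding gene of the count table whose symbol starts with Rpl, Rps or Rplp followed by a digit, without the S6 kinases of the Rps6k family. This gave 93 genes of the 54532 in the table, of which 43 were large-subunit proteins, 30 small-subunit proteins and 3 stalk proteins. A further 8 were paralogues of a core protein, and 8 carried a pseudogene name although the table lists them as protein coding. The last, Rps19bp1, has a matching symbol but encodes a protein that binds Rps19 and is not itself a ribosomal protein. Rpsa, Rack1 and Fau are ribosomal proteins, or precursors of them, whose names lie outside the pattern, and they are described separately. The 4 ICAM1high and the 4 ICAM1low libraries were both prepared from neutrophils of untreated Balb/c mice whose mammary fat pads had received 2208L tumour cells. Once a tumour measured 1 cm across it was removed and made into a cell suspension, from which the fractions were sorted on ICAM1, the adhesion molecule also called CD54. Each library was made from 100 ng of total RNA with an mRNA kit. The labels call the replicates biological, but none of them ties a library to a mouse, so the p-values measure the spread between these samples. The age and sex of the mice and the number of animals per sample were not used here.

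The cytosolic ribosome reads mRNA and joins amino acids. Its small subunit decodes the message, and its large subunit forms the peptide bond and holds the tunnel through which the chain leaves. Ribosomal protein mRNAs are short, abundant and usually produced in step, since the proteins are needed in equal amounts, and most begin with a run of pyrimidines, the TOP motif, through which mTORC1 and LARP1 control their translation. Mature neutrophils are short-lived cells with little protein synthesis compared with their marrow precursors or with macrophages.

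The libraries held 10328575 to 22751975 counts. Icam1 averaged 1459 ± 202 CPM in ICAM1high and 848.1 ± 214 CPM in ICAM1low (SD, n = 4 each), with a log2 fold change of 0.78 (edgeR quasi-likelihood test, Benjamini-Hochberg adjusted p = 0.0105). Levels are given as CPM, the gene's counts relative to the library's total after scaling by TMM, a method that sets each library's factor so that most genes agree. The label of all samples was neutrophil. The 10 neutrophil markers summed to 9444 to 12640 CPM in ICAM1high and 40230 to 79850 CPM in ICAM1low, and all 10 were lower in ICAM1high. The 10 macrophage and monocyte markers summed to 11970 to 20210 CPM in ICAM1high and 1624 to 2917 CPM in ICAM1low, and 9 of the 10 were higher in ICAM1high. B cell markers summed to 4.12 to 22.6 CPM in ICAM1high and 0.978 to 5.65 CPM in ICAM1low, T and NK cell markers to 5.37 to 13.4 CPM in ICAM1high and 12.5 to 21.5 CPM in ICAM1low, and erythroid markers to 0.341 to 0.821 CPM in ICAM1high and 0.440 to 4.77 CPM in ICAM1low. Platelet markers summed to 15.2 to 27.2 CPM in ICAM1high and 6.96 to 10.1 CPM in ICAM1low, and epithelial tumour markers to 98.0 to 152.1 CPM in ICAM1high and 240.0 to 435.4 CPM in ICAM1low. No marker was at 0 in every library. The part of these cell types in the results on ribosomal proteins was not tested.

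Few ribosomal protein genes differed between the fractions beyond the spread of their libraries. Of the 93 genes, 86 passed the filter on low counts, and 6 of the 86, or 6.98%, had an adjusted p under 0.05 (edgeR quasi-likelihood test, Benjamini-Hochberg over all 14051 genes tested). Of all genes tested, 42.1% did. The 4 genes higher in ICAM1high were Rpl3, Rpl4, Rpl10a and Rps18, against 22.6% of all genes, and the 2 lower ones were Rpl26 and Rpl3l, against 19.6%. The 4 ICAM1high libraries all lay above the 4 ICAM1low libraries for 3 of the genes, against 23.4% of all genes, and all below for 2, against 18%. An unadjusted p under 0.05 was found for 10 of the 86. The median log2 fold change over the 86 genes was 0.20, with 63 genes above 0 and 23 below, and over all genes tested it was 0.08. The standard error of a ribosomal protein gene's log2 fold change had a median of 0.317, against 0.284 over all genes. In bulk samples, fewer cells of a type and less RNA per cell cannot be told apart, here as for each value that follows.

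**Figure D1:**
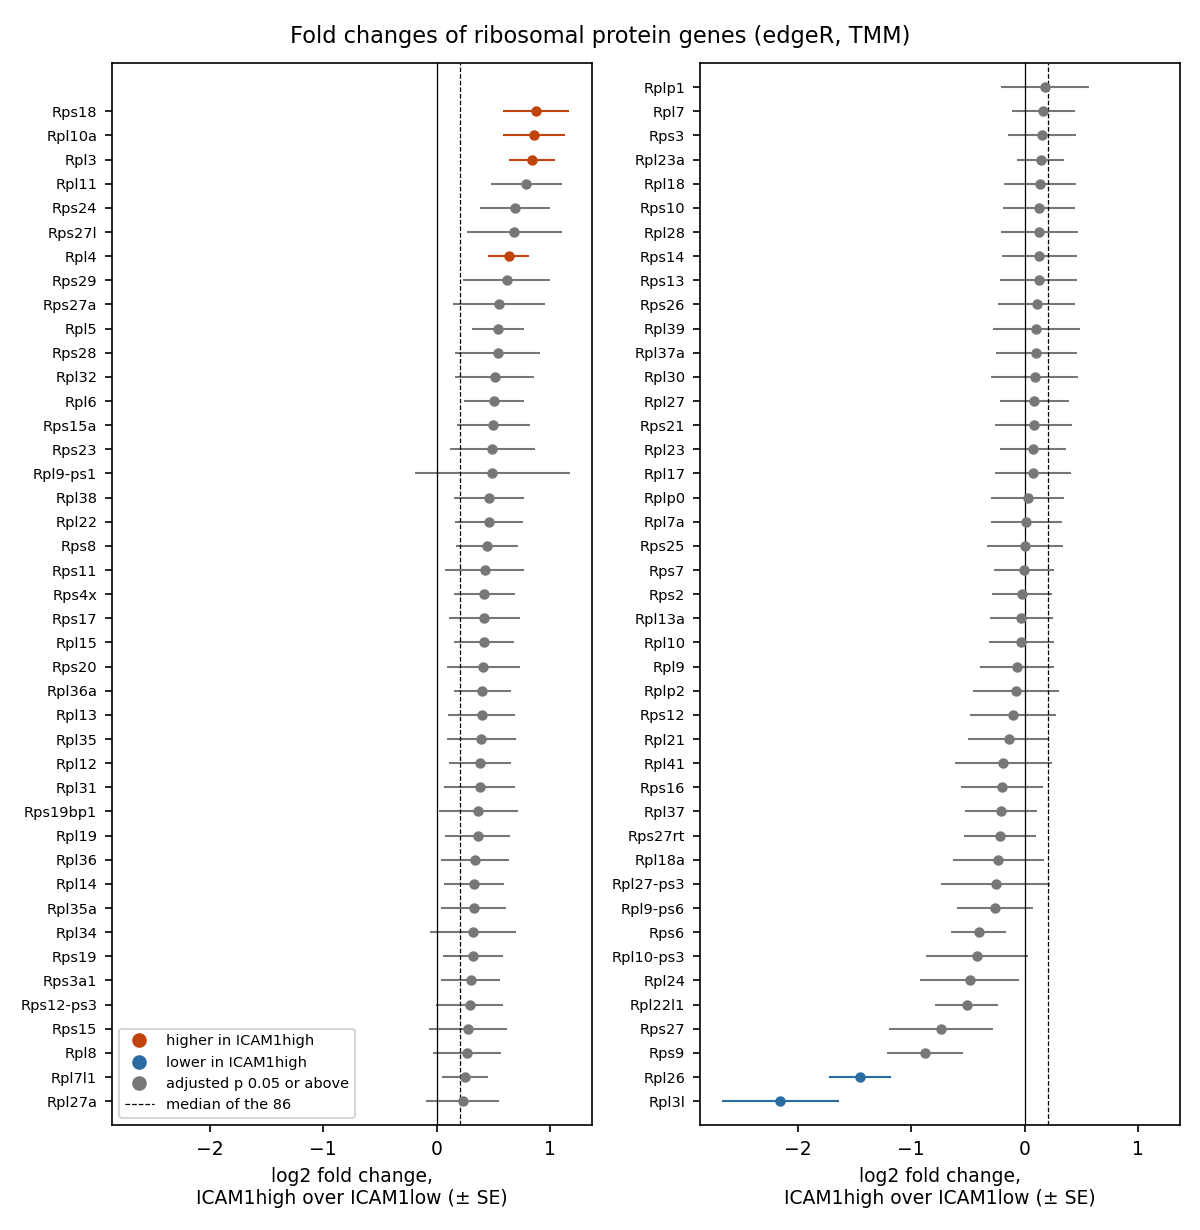
Log2 fold change, ICAM1high over ICAM1low, of 85 of the 86 ribosomal protein genes tested (x axis, log2 units), with bars of 1 standard error and genes sorted from the highest. The 4 genes in red and the 2 in blue passed the adjusted p of 0.05, the other 79 in grey did not, and the dashed line marks the median of 0.20 over all 86.

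In the libraries that stood apart, nearly all the genes deviated the same way. The ribosomal protein genes together took 2.56%, 1.81%, 1.55% and 1.32% of the counts in ICAM1high replicates 1 to 4, and 0.607%, 1.10%, 0.970% and 1.42% in ICAM1low replicates 1 to 4. The shares averaged 1.81 ± 0.540% in ICAM1high and 1.02 ± 0.337% in ICAM1low (SD, n = 4 each), and the groups overlapped, since ICAM1low replicate 4 lay above ICAM1high replicate 4. On the TMM scale, the median deviation of the 86 genes from their own mean over the 8 libraries was 0.77, 0.08, -0.06 and -0.30 log2 units in ICAM1high replicates 1 to 4 and -0.83, -0.10, -0.10 and 0.58 in ICAM1low replicates 1 to 4. One library of each group was thus high, and ICAM1low replicate 1 was low. ICAM1high replicate 1 held the highest level of 56 of the 86 genes (65.1%, against 20.1% of all genes) and ICAM1low replicate 4 of 27 (31.4%, against 18.9%). ICAM1low replicate 1 held the lowest level of 71 genes (82.6%, against 17.9% of all genes). Against the mean of the other libraries of its own group, the median gene stood at 1.81-fold in ICAM1high replicate 1, at 1.81-fold in ICAM1low replicate 4 and at 0.506-fold in ICAM1low replicate 1, while the medians over all genes were 0.996, 0.923 and 0.980. In these libraries 82, 82 and 1 of the 86 genes lay above the mean of the rest of the group.

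**Figure D2:**
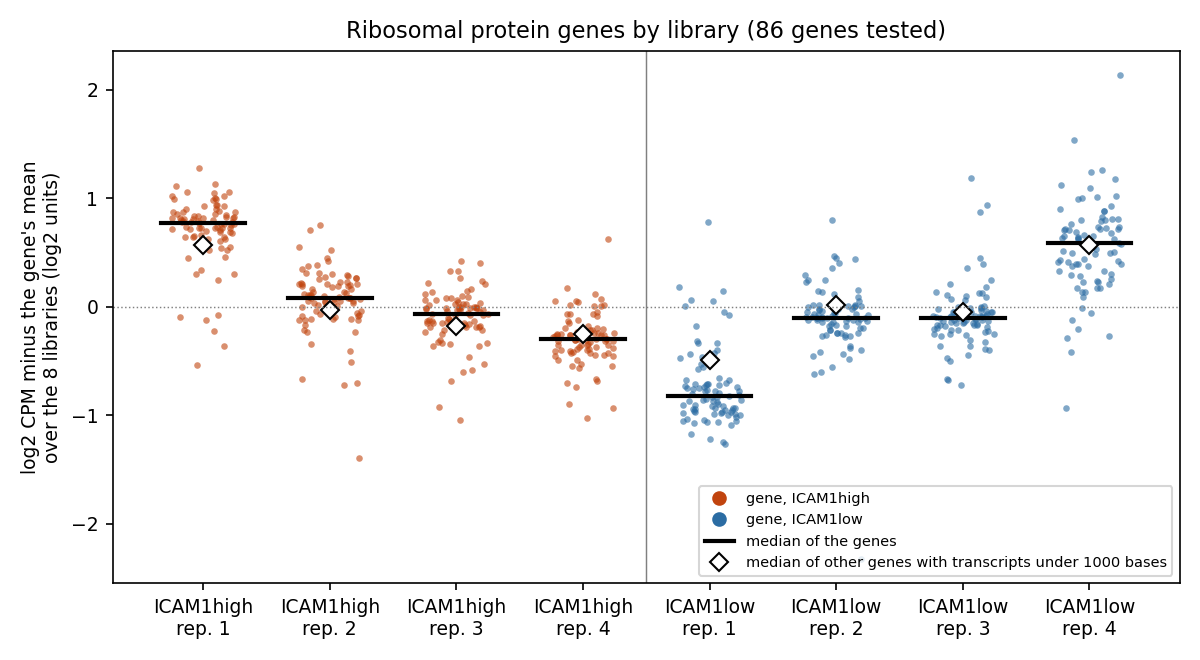
Log2 CPM of each of the 86 ribosomal protein genes minus its mean over the 8 libraries (y axis, log2 units), by library, with the median of the genes as a bar and that of other genes with transcripts under 1000 bases as a diamond. The bars run from 0.77 in ICAM1high replicate 1 to -0.83 in ICAM1low replicate 1, and the diamonds lie on the same side of 0 in the 3 libraries that stand farthest out.

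Other genes with short transcripts moved with the libraries in the same way. Most ribosomal protein transcripts are short: the median annotated coding transcript of the genes had 703 bases and a coding sequence of 453 bases. Among the 883 tested genes outside the family whose coding transcript had under 1000 bases, the median deviation was 0.57, -0.03, -0.18 and -0.25 log2 units in ICAM1high replicates 1 to 4, and -0.49, 0.02, -0.05 and 0.57 in ICAM1low replicates 1 to 4. Among the 5430 genes with transcripts of at least 3000 bases it was -0.18, 0.16, 0.21 and 0.23 in ICAM1high replicates 1 to 4, and 0.12, -0.04, -0.02 and -0.35 in ICAM1low replicates 1 to 4. ICAM1high replicate 1 and ICAM1low replicate 4 were therefore high for short and low for long transcripts. ICAM1low replicate 1 and ICAM1high replicates 2 to 4 were the reverse, with ICAM1high replicate 2 near 0 for short transcripts. The deviation of the short genes averaged 0.03 ± 0.371 in ICAM1high and 0.01 ± 0.437 in ICAM1low, and that of the long genes 0.11 ± 0.190 in ICAM1high and -0.07 ± 0.197 in ICAM1low (SD, n = 4 each). Summed counts of short genes relative to longer ones were on average lower in ICAM1high. Such a ratio of sums weighs abundant genes most. The median log2 fold change of the 883 genes with transcripts under 1000 bases was 0.005. The log2 ratio of summed counts of coding genes under 1000 bases of deposited length to those of longer ones, without ribosomal proteins, was -4.37, -5.19, -5.25 and -5.21 in ICAM1high replicates 1 to 4 and -4.52, -4.06, -4.01 and -3.07 in ICAM1low replicates 1 to 4. It averaged -5 ± 0.421 in ICAM1high and -3.92 ± 0.609 in ICAM1low (SD, n = 4 each), and the groups overlapped through replicate 1 of each. The part of transcript length in the results on ribosomal proteins was tested only through the length alternatives given below.

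**Figure D3:**
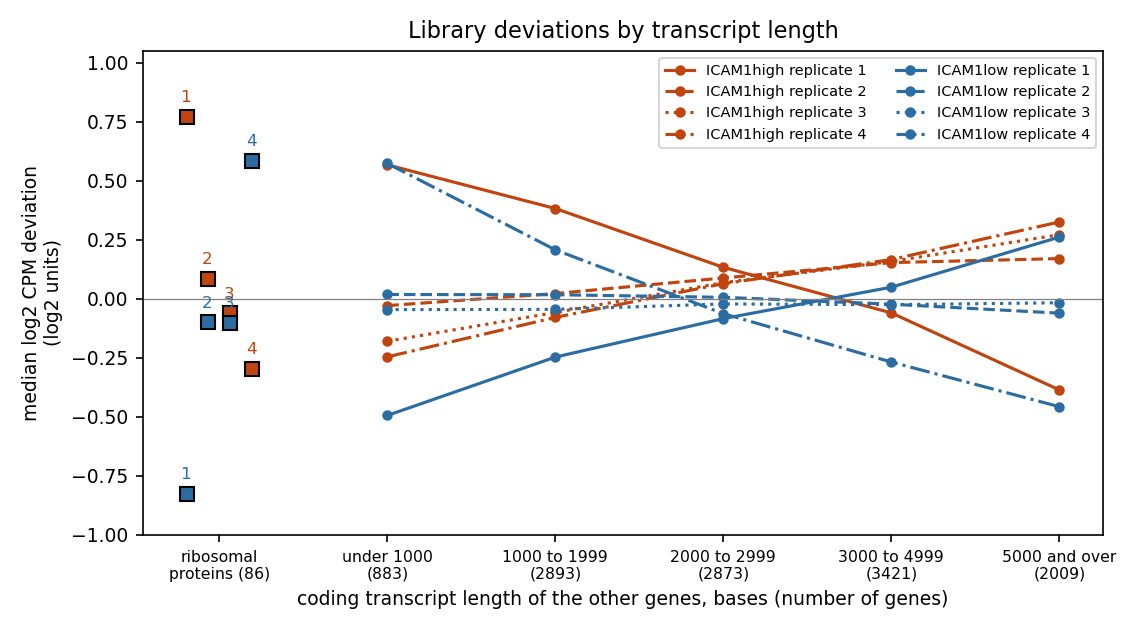
Median deviation of log2 CPM from the gene mean over the 8 libraries (y axis, log2 units) for the 86 ribosomal protein genes (squares, labelled by replicate) and for other coding genes by transcript length in bases (lines, 1 per library). The lines of ICAM1high replicate 1 and ICAM1low replicate 4 fall from left to right, and their squares lie at 0.77 and 0.58. The line of ICAM1low replicate 1, whose square lies at -0.83, climbs, as do those of ICAM1high replicates 2 to 4.

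Among the large-subunit proteins, 42 of 43 were tested, and the median log2 fold change was 0.25. In ICAM1high 3 rose (7.14%, against 22.6% of all genes) and 1 fell (2.38%, against 19.6%). Rpl3, which lies close to the catalytic centre of the ribosome (ENSMUSG00000060036, mm10 chr15:80077791-80091868, minus strand), had 274, 226, 218 and 180 CPM in ICAM1high replicates 1 to 4 and 84.3, 137, 144 and 137 CPM in ICAM1low replicates 1 to 4. The groups did not overlap, with ICAM1low replicate 1 well below the other ICAM1low libraries. It averaged 224.3 ± 38.7 CPM in ICAM1high and 125.5 ± 27.6 CPM in ICAM1low, and its log2 fold change was 0.84 ± 0.20 (SE, edgeR quasi-likelihood test, adjusted p = 0.00760). Syngr1, which lies on the opposite strand within the span of Rpl3 without exon overlap, held 7.58% of the counts of Rpl3 and had a log2 fold change of 2.83 (edgeR adjusted p = 8.98e-06). Its part in the value of Rpl3 was not tested. Rpl4, which lines the tunnel of the nascent chain (ENSMUSG00000032399, mm10 chr9:64173375-64178666, plus strand), had 457, 418, 402 and 330 CPM in ICAM1high and 194, 265, 315 and 262 CPM in ICAM1low. Its groups lay apart by a small margin, between ICAM1high replicate 4 and ICAM1low replicate 3. The log2 fold change of Rpl4 was 0.63 ± 0.18 (SE, edgeR adjusted p = 0.0159), and it was 0.60 with an adjusted p of 0.0529 without ICAM1high replicate 2.

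Rpl10a, the protein of the mobile L1 stalk near the exit of spent tRNA (ENSMUSG00000037805, mm10 chr17:28328471-28331033, plus strand), had 321, 208, 180 and 156 CPM in ICAM1high replicates 1 to 4 and 73.4, 129, 120 and 154 CPM in ICAM1low replicates 1 to 4. The lowest ICAM1high library was only just above the highest ICAM1low library. The log2 fold change was 0.86 ± 0.27 (SE, edgeR adjusted p = 0.0268). It passed the threshold when ICAM1high replicate 3 or 4 or ICAM1low replicate 4 was left out. The adjusted p was 0.0792 without ICAM1high replicate 1, where the log2 fold change was 0.57, and 0.0634 without ICAM1high replicate 2. Leaving out ICAM1low replicate 1, 2 or 3 in turn gave 0.0507, 0.0524 or 0.0624.

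Rpl26, a protein at the rim of the tunnel exit that in human cells also binds the p53 mRNA (ENSMUSG00000060938, mm10 chr11:68901583-68906989, plus strand), went the other way. It had 51.1, 37.4, 31.5 and 29.2 CPM in ICAM1high replicates 1 to 4 and 56.6, 103.6, 114 and 135 CPM in ICAM1low replicates 1 to 4. All ICAM1high libraries were below all ICAM1low libraries, although ICAM1low replicate 1 came close to ICAM1high replicate 1. Rpl26 averaged 37.3 ± 9.83 CPM in ICAM1high and 102.3 ± 33.1 CPM in ICAM1low, with a log2 fold change of -1.45 ± 0.27 (SE, edgeR adjusted p = 0.00200). It passed the threshold without any 1 library, with log2 fold changes of -1.68 to -1.29, while the median ribosomal protein gene lay at 0.20.

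Among the small-subunit proteins all 30 were tested, and the median log2 fold change was 0.27. In ICAM1high 0 fell (against 19.6% of all genes) and 1 rose (3.33%, against 22.6%). That gene was Rps18, a protein of the head of the subunit (ENSMUSG00000008668, mm10 chr17:33951999-33956001, minus strand), named here after its values were seen because of its low level. It had 14.2, 8.77, 9.51 and 7.09 CPM in ICAM1high replicates 1 to 4 and 3.52, 5.32, 5.18 and 7.55 CPM in ICAM1low replicates 1 to 4, and the groups overlapped. The log2 fold change was 0.88 ± 0.29 (SE, edgeR adjusted p = 0.0340). It passed the threshold without ICAM1high replicate 4 or ICAM1low replicate 4. Leaving out ICAM1high replicate 1, 2 or 3 in turn gave an adjusted p of 0.109, 0.0678 or 0.0758, and leaving out ICAM1low replicate 1, 2 or 3 gave 0.0735, 0.0729 or 0.0762. The exons of Rps18 overlap those of Vps52 on the opposite strand, which held 484% of the counts of Rps18, and the sources used here do not give whether counting used strand. Vps52 itself had a log2 fold change of 0.31 with an edgeR adjusted p of 0.0951.

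**Figure D4:**
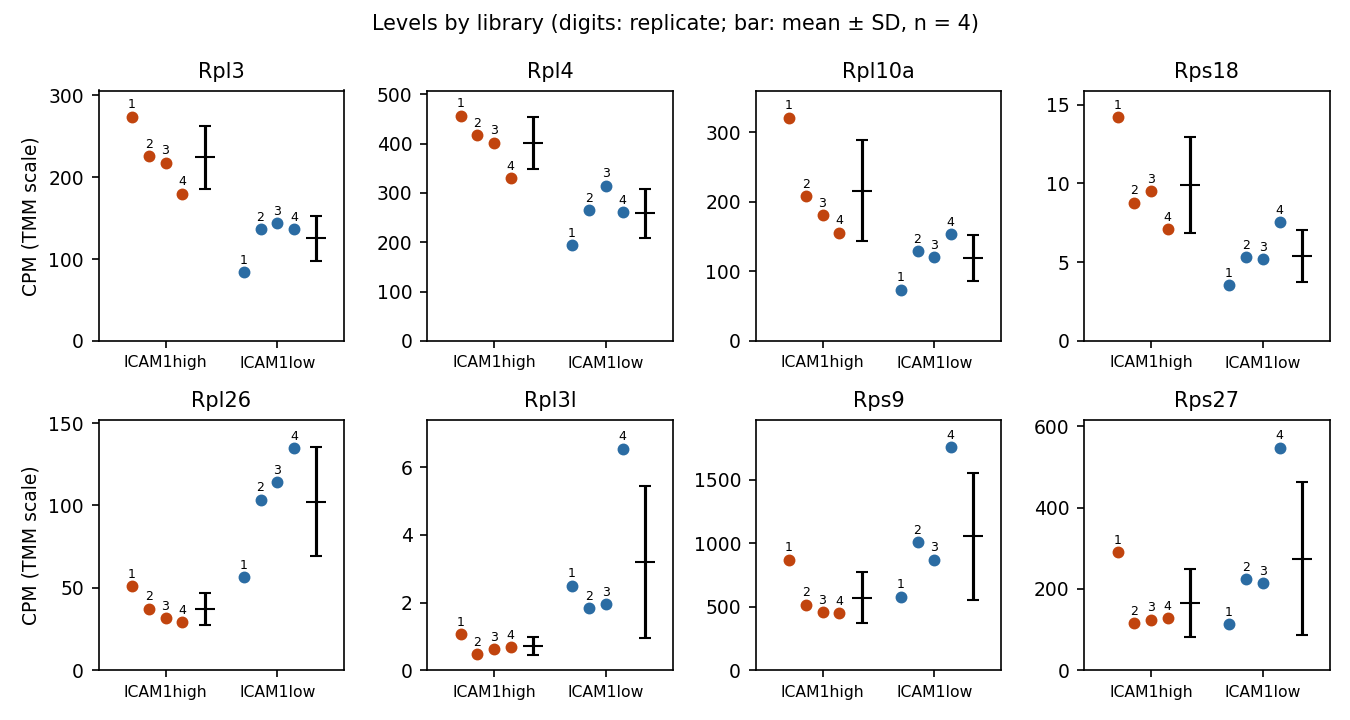
CPM on the TMM scale (y axis, from 0) of 8 ribosomal protein genes in each library, with the replicate number at each point and a bar for mean ± SD (n = 4). The ICAM1high points of Rpl3, Rpl4 and Rpl10a lie above all ICAM1low points and those of Rpl26 and Rpl3l below, while for Rps18, Rps9 and Rps27 the groups overlap.

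Some small-subunit genes with high levels pointed down without passing the test. Rps9, a protein at the entry of the mRNA channel, had 869, 514.5, 454 and 449 CPM in ICAM1high replicates 1 to 4 and 578.5, 1009, 869.5 and 1755 CPM in ICAM1low replicates 1 to 4. The groups overlapped through ICAM1high replicate 1 and ICAM1low replicate 1, and the log2 fold change was -0.88 ± 0.33 (SE, edgeR adjusted p = 0.0554). Rps27, a zinc-finger protein of the small subunit, had 290.4, 116, 124 and 128 CPM in ICAM1high and 113, 224, 214 and 547.5 CPM in ICAM1low. ICAM1high replicate 1 and ICAM1low replicate 4 stood far above the rest of their groups, and the log2 fold change was -0.74 ± 0.46 (SE, edgeR adjusted p = 0.216). Rps6, the substrate of the S6 kinases downstream of mTORC1, averaged 399.6 ± 106 CPM in ICAM1high and 528.8 ± 139 CPM in ICAM1low (SD, n = 4 each), with a log2 fold change of -0.40 (edgeR adjusted p = 0.203).

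Other genes pointed up without passing. Rpl5 and Rpl11 form a particle with the ribosomal RNA called 5S, which binds Mdm2 when ribosome assembly fails. Rpl5 had 323, 240.5, 239.8 and 183 CPM in ICAM1high and 107, 181, 198 and 191.5 CPM in ICAM1low, with a log2 fold change of 0.54 ± 0.23 (SE, edgeR adjusted p = 0.0823). Rpl11 had 375, 223, 189 and 163 CPM in ICAM1high and 80.7, 145, 124 and 199 CPM in ICAM1low, with a log2 fold change of 0.79 ± 0.31 (SE, edgeR adjusted p = 0.0636). The groups overlapped for both genes. Rps24, which like several ribosomal proteins is mutated in Diamond-Blackfan anaemia in people, averaged 187.2 ± 77.8 CPM in ICAM1high and 116.0 ± 39.2 CPM in ICAM1low (SD, n = 4 each), with a log2 fold change of 0.69 (edgeR adjusted p = 0.0917).

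The 3 stalk proteins, which recruit elongation factors to the large subunit, gave no call in either direction. Rplp0, the base of the stalk, averaged 211.5 ± 71.2 CPM in ICAM1high and 207.8 ± 88.6 CPM in ICAM1low, and its log2 fold change was 0.03 ± 0.32. Rplp1 averaged 393.1 ± 195 CPM in ICAM1high and 347.9 ± 176 CPM in ICAM1low, with a log2 fold change of 0.18 ± 0.39. Rplp2 averaged 171.6 ± 65.2 CPM in ICAM1high and 181.4 ± 102 CPM in ICAM1low, with a log2 fold change of -0.08 ± 0.38 (SD, n = 4; SE for fold changes; edgeR adjusted p of 0.956, 0.744 and 0.882 for the 3 genes in this order). Levels in ICAM1high replicate 1 and ICAM1low replicate 4 were the highest of their group for all 3.

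Paralogues can replace a core ribosomal protein in some tissues. Of the 8 paralogues listed, 5 were tested, and 1 fell (20%, against 19.6% of all genes). It was Rpl3l, the paralogue of Rpl3 known from heart and skeletal muscle (ENSMUSG00000002500, mm10 chr17:24727820-24736143, plus strand). It had 1.07, 0.468, 0.628 and 0.686 CPM in ICAM1high replicates 1 to 4 and 2.5, 1.83, 1.96 and 6.55 CPM in ICAM1low replicates 1 to 4, so the groups lay apart at a level near the filter. The log2 fold change was -2.16 ± 0.52 (SE, edgeR adjusted p = 0.00736), against 0.84 for Rpl3, and without ICAM1low replicate 4 it was -1.54 (adjusted p = 0.0150). None of the 50-base stretches of its transcript occurred in a transcript of another gene.

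The other paralogue pairs gave no call. Rpl22l1 averaged 18.4 ± 6.11 CPM in ICAM1high and 26.4 ± 7.62 CPM in ICAM1low, with a log2 fold change of -0.51 (edgeR adjusted p = 0.158), while its partner Rpl22 averaged 105.0 ± 33.3 CPM in ICAM1high and 76.4 ± 28.8 CPM in ICAM1low, with 0.46 (adjusted p = 0.244). The difference between the partners was not tested. Rps27l, a p53 target, averaged 34.0 ± 17.0 CPM in ICAM1high and 21.2 ± 12.4 CPM in ICAM1low, with a log2 fold change of 0.68 (edgeR adjusted p = 0.212). Rps27rt, an intronless copy of Rps27, averaged 48.6 ± 16.2 CPM in ICAM1high and 56.6 ± 25 CPM in ICAM1low, with -0.22 (edgeR adjusted p = 0.611). Rpl7l1 had a log2 fold change of 0.25 and Rpl7 of 0.16, Rpl10 of -0.03, Rps4x of 0.42, Rpl36a of 0.40 and Rpl39 of 0.10, with edgeR adjusted p-values of 0.346, 0.668, 0.939, 0.228, 0.219 and 0.852. Rps4l, listed in the table as a pseudogene and so outside the 93 genes, had a log2 fold change of -0.15 at 1.04 ± 0.530 CPM in ICAM1high and 1.15 ± 0.585 CPM in ICAM1low (SD, n = 4 each, edgeR adjusted p = 0.849).

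The 7 untested genes had few or no reads. Rpl36a-ps1, Rpl36al and Rpl29 had at most 21, 16 and 18 counts in any library. Rpl10l and Rpl39l, paralogues typical of the testis, and Rpl36-ps4 and Rpl13a-ps1 had 0 counts in all 8 libraries, which over their total of 145447063 counts allows a level of up to 0.0206 CPM by counting error. Rpl29 is a core protein of the large subunit. The genes under 10 CPM on average in both fractions numbered 10 of the 86 tested, and they included the core proteins Rpl21, Rpl24, Rpl30, Rps10 and Rps18. Rpl24 averaged 0.710 ± 0.169 CPM in ICAM1high and 0.989 ± 0.182 CPM in ICAM1low (SD, n = 4 each). At the other end, per kilobase of the deposited gene length and over all libraries, Rplp1 had the highest level at 742 CPM per kilobase, followed by Rps15 at 323 and Rps9 at 322.

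Reads of ribosomal protein genes are hard to place, because the mouse genome holds many processed pseudogenes that copy them. Of the 50-base stretches in the transcripts of 91 of the genes, a median of 62.2% also occurred in a transcript of another gene in GENCODE M21. The share was over 50% for 54 genes and under 20% for 15. It was 85.6% for Rpl3, 71.3% for Rpl26, 77.7% for Rpl10a, 86.7% for Rps18 and 16.5% for Rpl4. The sources used here do not say how the authors' counting treated reads with several possible places, so values of genes with a high share are uncertain.

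The pseudogene entries themselves held counts. Rpl3-ps1 shared 81.5% of the stretches of Rpl3 and held 16331 counts over the 8 libraries, against 26911 for Rpl3, and it had a log2 fold change of 0.90 (edgeR adjusted p = 0.00854). The named pseudogenes of Rps2 held 1750% of the counts of Rps2 itself, those of Rpl21 1530%, those of Rps10 1197%, those of Rpl17 296% and those of Rpl35a 119%. With the counts of named pseudogenes added to their parents, Rpl3 had a log2 fold change of 0.86 (edgeR adjusted p = 0.00797), Rpl4 of 0.64 (0.0161), Rpl10a of 0.83 (0.0356) and Rpl26 of -1.44 (0.00209), with the adjusted p in brackets. Rps18 then had 0.50 with an adjusted p of 0.211, so its call was lost. Among the 12 tested genes with a share under 20%, 2 were called, Rpl4 and Rpl3l. Of the 86 ribosomal protein genes 6.98% were called, and of all genes 42.1%. Rps3 at 2.96% and Rpl8 at 7.86% had log2 fold changes of 0.15 and 0.27 with edgeR adjusted p-values of 0.713 and 0.505.

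The log2 fold change showed little correlation with length or shared sequence across the genes, which share libraries and so are not independent. Pearson's r between log2 fold change and log2 coding length was -0.06 over 85 genes (Spearman's rho 0), and between log2 fold change and the shared percentage it was -0.02 (rho -0.14). Between log2 fold change and average log2 CPM it was 0.24 over 86 genes (rho 0.04). By coding length, the 10 genes under 300 bases had a median log2 fold change of 0.09, the 49 of 300 to under 600 bases one of 0.23 and the 26 of 600 bases or more one of 0.27. In ICAM1low replicate 4 the median deviation was 0.85, 0.59 and 0.40 log2 units in these classes, shortest first, whereas in ICAM1high replicate 1 it was 0.74, 0.81 and 0.73.

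Runs of pyrimidines were counted around the annotated transcription starts, whether they lay before or after the start, so a run counted here need not be a TOP motif. RefSeq starts on GRCm38.p6 were matched by symbol for 65 of the 93 genes, with 77 starts; Rpl3 is named without a sequence. A run of at least 7 pyrimidines lay within the 40 bases around the start, 20 before and 20 after, in 40 of the 77 starts (51.9%) and in 7986 of the 32851 starts in the table (24.3%). The letters CCGGAAG, read on both strands as CCGGAAG or CTTCCGG and known from binding sites of ETS factors, were in the 300 bases around the start of 26 of the 77 (33.8%) and of 8.9% of all starts. Below are the windows of called genes and of Rps9 and Rps6, 5′ to 3′ in the sense of the gene, with the longest pyrimidine run in capitals.
Rpl4: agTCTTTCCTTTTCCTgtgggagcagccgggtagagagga
Rpl10a: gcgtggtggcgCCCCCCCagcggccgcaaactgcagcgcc
Rps18: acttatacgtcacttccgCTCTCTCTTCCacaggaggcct
Rpl3l: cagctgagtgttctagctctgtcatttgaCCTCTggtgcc
Rpl26: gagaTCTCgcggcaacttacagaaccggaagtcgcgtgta
Rps9: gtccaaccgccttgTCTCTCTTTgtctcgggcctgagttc
Rps6: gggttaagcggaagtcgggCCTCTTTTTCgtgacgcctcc
They lie at chr9:64173367-64173406 (plus strand), chr17:28328451-28328490 (plus), chr17:33955646-33955685 (minus), chr17:24727806-24727845 (plus), chr11:68901546-68901585 (plus), chr7:3704021-3704060 (plus) and chr4:86857348-86857387 (minus), in the order printed, and of the starts that RefSeq lists for Rpl10a and Rpl3l only the first is shown. Rpl4, which rose, has a run of 14 pyrimidines, and Rpl26 and Rpl3l, which fell, have none over 4 and 5 in these windows, but Rps9 and Rps6, with log2 fold changes of -0.88 and -0.40, have runs of 9 and 10. The runs printed for Rpl4 and Rpl10a lie within the first 20 letters, before the RefSeq start, while those of Rps18, Rps9 and Rps6 span it. For Rpl4 the gene start in the count table, chr9:64173375, lies within the printed run. For Rpl26 the gene start in the count table, chr11:68901583, lies near the end of the window, so a run beyond that start would not be seen. A run is a description of these letters and not a measured start.

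Rps27 and its copy Rps27rt share most of their sequence. Their transcripts shared 98.65% of the 50-base stretches of Rps27, and the windows at their starts hold the same 19 bases, in capitals here, after different upstream sequence.
Rps27: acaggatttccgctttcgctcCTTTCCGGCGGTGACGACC
Rps27rt: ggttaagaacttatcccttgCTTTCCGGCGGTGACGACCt
The windows are chr3:90213629-90213668 (minus strand) and chr9:114982720-114982759 (minus), from RefSeq on GRCm38.p6. Rps27 was highest in ICAM1low replicate 4 at 547.5 CPM, and Rps27rt too, at 91.6 CPM, but in ICAM1high the highest library was replicate 1 for Rps27, at 290.4 CPM, and replicate 2 for Rps27rt, at 71.8 CPM.

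By the numbers in the library names, replicates 1 and 2 of both fractions fall in one range and replicates 3 and 4 in another. The median ribosomal protein gene pointed in opposite directions in these pairs. The libraries that stood apart fall in both. By median deviation, ICAM1high lay above ICAM1low in replicates 1 (0.77 against -0.83), 2 (0.08 against -0.10) and 3 (-0.06 against -0.10). It lay below in replicate 4 alone (-0.30 against 0.58). In replicates 1 and 2 alone, 13 of 88 tested genes rose and 0 fell (14.8% called, against 21.8% of all genes; edgeR, adjusted p under 0.05), and the median log2 fold change was 0.89. In replicates 3 and 4 alone, 0 rose and 3 fell, namely Rpl26, Rps6 and Rps9 (3.41%, against 22.4% of all genes), and the median was -0.44. The medians over all genes were 0.08 and 0.05. The difference between the pairs was not tested. Rpl26 was at -0.86 in replicates 1 and 2 (edgeR adjusted p = 0.0991) and at -2.09 in replicates 3 and 4 (adjusted p = 0.00707). Rpl3 was at 1.18 (adjusted p = 0.0299) and 0.45 (0.148), and Rpl4 at 0.93 (0.0535) and 0.30 (0.331). Rpl10a was at 1.39 (0.0226) and 0.24 (0.459), Rps18 at 1.37 (0.0375) and 0.34 (0.531), and Rpl3l at -1.48 (0.153) and -2.75 (0.0547), with replicates 1 and 2 first and edgeR adjusted p-values in brackets. The 6 genes had the same sign in both pairs.

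With ICAM1high replicate 1 and ICAM1low replicate 4 both left out, the remaining 6 libraries gave 11 higher and 4 lower genes (17.4%, against 50% of all genes; edgeR, adjusted p under 0.05), with a median of 0.19. All 6 genes called in the full set were among them. The libraries left out were the highest of their groups by the median deviation of these same genes (0.77 and 0.58). Leaving them out therefore tends to narrow the spread of these genes, so the calls here are no separate check of the full set. Rpl3 had a log2 fold change of 0.74 (edgeR adjusted p = 0.0105), Rpl4 of 0.54 (0.0306), Rpl10a of 0.72 (0.0148), Rps18 of 0.82 (0.0152), Rpl26 of -1.51 (0.000498) and Rpl3l of -1.85 (0.00524). Rps9 at -0.82 (adjusted p = 0.00538), Rps27 at -0.62 (0.0403), Rpl11 at 0.69 (0.0203) and Rps24 at 0.56 (0.0225) also passed in these 6 libraries. The median over the genes reversed to -0.09 without ICAM1high replicate 1 alone, with 2 higher and 5 lower (8.05%, against 41.2% of all genes). It was 0.46 without ICAM1low replicate 4 alone, with 12 higher and 2 lower (15.9%, against 43.6%). Without ICAM1low replicate 1 it was 0.04, with 2 higher and 3 lower (5.62%, against 39.1%). Without ICAM1high replicate 2 there were 1 higher and 2 lower (3.45%, against 31.2%). Without ICAM1low replicate 2 or 3 there were 2 and 2 (4.55% and 4.49%, against 36.5% and 35.5%).

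The size of the family's median change also depended on the scaling, while its sign stayed positive. With library totals in place of TMM, 58 of the 86 genes were higher and 2 lower (69.8%, against 54.5% of all genes), with a median log2 fold change of 0.90. That scaling moved the median of all genes to 0.76, so most of the 0.90 is a shift shared with all genes, and 89% of all calls were then higher, against 53.6% with TMM. Scaling factors were also set on the ribosomal protein genes alone, which measures each gene against its own family. With them, 0 were higher and 3 lower (3.49%, against 17.3% of all genes). The median was 0.01, which that scaling sets near 0 by design, and the median of all genes was -0.18. The 3 were Rpl26 at -1.66 (edgeR adjusted p = 0.00205), Rpl3l at -2.33 (0.0100) and Rps9 at -1.06 (0.0108), whereas Rpl3 at 0.61 (0.153) and Rpl4 at 0.39 (0.396) no longer passed.

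**Figure D5:**
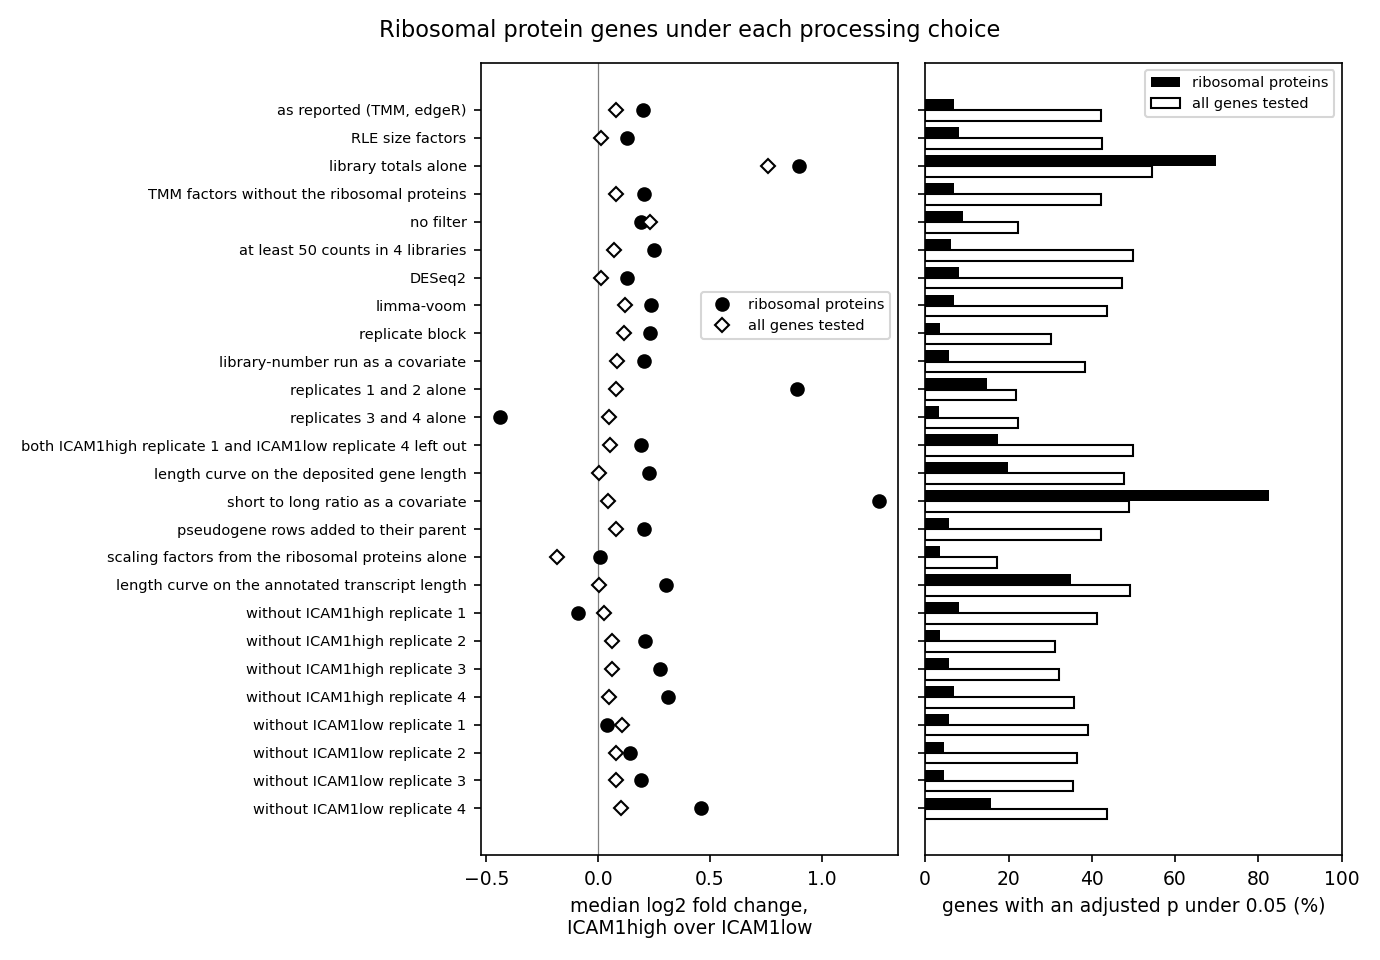
Median log2 fold change, ICAM1high over ICAM1low, of the ribosomal protein genes and of all genes tested (left, log2 units), and the percentage of each with an adjusted p under 0.05 (right), under every processing choice. The median of the ribosomal protein genes runs from -0.44 in replicates 3 and 4 alone to 1.26 with the short-to-long ratio as a covariate, and their share of calls exceeds that of all genes with library totals and with that covariate.

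Corrections for transcript length gave more calls. With a smooth curve of log2 level on the deposited gene length removed from each library, 14 genes were higher and 3 lower (19.8%, against 47.8% of all genes), with a median of 0.23. Rpl3 then had a log2 fold change of 0.75 (edgeR adjusted p = 0.00342), Rpl26 of -1.39 (9.92e-05) and Rps9 of -0.93 (0.0153). With the curve on the annotated transcript length, added after the data were seen, 26 were higher and 4 lower (34.9%, against 49.2%), with a median of 0.31. Rpl3 had 0.81 (edgeR adjusted p = 0.000793), Rpl26 -1.26 (7.01e-05) and Rps9 -0.77 (0.00551) with that curve. With the ratio of short to long genes in each library as a covariate, 70 were higher and 1 lower (82.6%, against 49% of all genes), with a median of 1.26. That ratio differed between the fractions, as given above, so in this fit its effect and that of the fraction cannot be told apart. In all 25 alternatives, the sign of the 6 called genes stayed the same wherever they were tested. Rpl26 passed in 24 of them, Rpl3 in 23, Rpl3l in 21 of 24, Rpl4 in 20, Rpl10a in 17 and Rps18 in 14.

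Of Fau, Rpsa and Rack1, the ribosomal proteins outside the naming pattern, Fau passed. Fau, which encodes a ubiquitin-like domain fused to the small-subunit protein Rps30, had 879, 542, 466 and 501 CPM in ICAM1high replicates 1 to 4 and 650.5, 1084, 935.5 and 2124 CPM in ICAM1low replicates 1 to 4. ICAM1high replicate 1 lay above ICAM1low replicate 1, so the groups overlapped, and the log2 fold change was -1.01 ± 0.35 (SE, edgeR adjusted p = 0.0387). Rpsa averaged 482.1 ± 175 CPM in ICAM1high and 341 ± 98.5 CPM in ICAM1low, and Rack1, a signalling scaffold on the small subunit, 407.5 ± 136 CPM in ICAM1high and 309.3 ± 92.5 CPM in ICAM1low. Their log2 fold changes were 0.50 and 0.40 (edgeR adjusted p of 0.174 and 0.273).

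Among the factors that build ribosomes, many transcripts were higher in ICAM1high. Of 76 ribosome biogenesis factors, all tested, 33 rose (43.4%, against 22.6% of all genes), 3 fell (3.95%, against 19.6%) and 40 did not pass, and their median log2 fold change was 0.52. They included Pes1, of the PeBoW complex that matures the large subunit, at 46.6 ± 8.71 CPM in ICAM1high and 19.9 ± 1.35 CPM in ICAM1low, with a log2 fold change of 1.23. Nol6, of the small-subunit processome, averaged 24.9 ± 3.65 CPM in ICAM1high and 10.3 ± 2.03 CPM in ICAM1low, and Ddx21, a nucleolar RNA helicase, 61.3 ± 13.7 CPM in ICAM1high and 23.8 ± 7.03 CPM in ICAM1low, with 1.27 and 1.37 (SD, n = 4 each; edgeR adjusted p of 0.000371, 0.000755 and 0.00181). The factors that fell were Sbds, which releases an anti-association factor from the new large subunit, at 60.0 ± 4.54 CPM in ICAM1high and 107.9 ± 7.59 CPM in ICAM1low, and Utp4, of the processome, and Mrto4, a relative of Rplp0 on the immature large subunit. Their log2 fold changes were -0.85, -0.75 and -0.83 (edgeR adjusted p of 0.000724, 0.00277 and 0.0181). In replicates 1 and 2 alone 10 of the 76 biogenesis factors rose, near the share of all genes (1708 of 14323). In replicates 3 and 4 alone 7 rose, also near that share (1658 of 14541). The direct difference between the biogenesis factors and the ribosomal proteins was not tested.

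Of 47 translation factors, all tested, 12 rose (25.5%, against 22.6% of all genes), 4 fell (8.51%, against 19.6%) and 31 did not pass, with a median log2 fold change of 0.24. Eif2s1, the subunit of eIF2 whose phosphorylation slows initiation under stress, averaged 40.5 ± 5.76 CPM in ICAM1high and 12.7 ± 1.93 CPM in ICAM1low, with a log2 fold change of 1.67 (edgeR adjusted p = 7.44e-05). The eIF3 subunits Eif3c and Eif3b had 0.84 and 0.95 (adjusted p of 0.000610 and 0.000908). Etf1, the release factor that reads stop codons, averaged 248.1 ± 12.9 CPM in ICAM1high and 580.3 ± 61.8 CPM in ICAM1low, with -1.23 (edgeR adjusted p = 1e-04). Eif1, which guards start codon choice, averaged 474.1 ± 155 CPM in ICAM1high and 1352 ± 500 CPM in ICAM1low, with -1.51 (edgeR adjusted p = 0.00216), and Tpt1, a TOP mRNA that encodes a small growth-related protein, 929.1 ± 267 CPM in ICAM1high and 1758 ± 589 CPM in ICAM1low, with -0.92 (adjusted p = 0.0180).

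Of the 25 regulators of TOP mRNAs and of MYC, 24 were tested, 7 rose (29.2%, against 22.6% of all genes) and 7 fell (29.2%, against 19.6%), and the median log2 fold change was 0.25. Rptor, the raptor subunit of mTORC1, averaged 29.5 ± 7.05 CPM in ICAM1high and 6.57 ± 2.19 CPM in ICAM1low, with a log2 fold change of 2.17 (edgeR adjusted p = 0.000314). Larp1, which binds TOP mRNAs, had 0.96 and Tsc2, a brake on mTORC1, 0.84 (edgeR adjusted p of 0.000882 and 0.00208). Mxd1, a repressor that competes with MYC for Max, averaged 1671 ± 206 CPM in ICAM1high and 5864 ± 567 CPM in ICAM1low, with -1.81 (edgeR adjusted p = 1.87e-05). Max itself had -1.36 and the S6 kinase family member Rps6ka2 -1.23 (edgeR adjusted p of 0.000102 and 0.00222). Of all genes tested, 42.1% passed in either direction, against 47.4% of the biogenesis factors, 34% of the translation factors and 58.3% of the TOP and MYC regulators.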

How the data were processed

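The 8 libraries, 4 of ICAM1high and 4 of ICAM1low cells, were sequenced as mRNA. Raw whole-number counts, not normalized, were deposited by the authors in 1 table for 54532 genes with names, mm10 positions, biotypes and a gene length in bases. That length, an other quantity as deposited, was used only for levels per kilobase and for a length correction. Alignment with HISAT2 to mm10 is named in the submitters' processing notes. Not given in the sources used here are the counting tool, the annotation release, strand use and the handling of reads with several places. The precision of low values follows from library totals of 10328575 to 22751975 counts, and 0 pairs of libraries were identical.

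Genes were filtered with filterByExpr by group, which left 14051, and library sizes were scaled by TMM. The test was edgeR's quasi-likelihood test (edgeR 4.0.16, R 4.3.3) of ICAM1high over ICAM1low, with Benjamini-Hochberg adjustment over the 14051 genes and calls at an adjusted p under 0.05. Standard errors were derived from the fold change and its F statistic. Deviations use log2 CPM with a prior count of 2. The scripts were tested on simulated data.

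The ribosomal protein genes, the other lists and the markers were chosen with earlier results of these data known. Named were up to 8 called genes in each direction that reached an average log2 CPM of 3; the stalk proteins; 8 paralogue pairs; Rps6, Rpl5 and Rpl11; the 3 genes with the highest level per kilobase; Rpsa, Rack1 and Fau, which lie outside the naming pattern; Icam1; and up to 3 genes per list and direction with the smallest p, from an average log2 CPM of 1. Rps18, Rps24, Rps27rt, Rps3, Rpl8, Rpl17, Rpl21, Rpl24, Rpl29, Rpl30, Rpl35a, Rps2 and Rps10 were named after their values were seen. Some genes that the rules name are not reported here.

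Transcript lengths and shared stretches of 50 bases come from GENCODE M21, in which all 93 genes were found, 89 at the same position. The coding transcript with the longest coding sequence, and the shortest such one, was used. Promoter windows come from RefSeq on GRCm38.p6.

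Alternatives were RLE scaling, library totals, TMM factors without the ribosomal proteins, no filter, a filter of 50 counts in 4 libraries, DESeq2 1.42.0, voom of limma 3.58.1, a replicate block, the library-number pairs as a covariate or each alone, each library left out, 2 libraries left out together, a lowess curve on gene length (span 0.3), the ratio of counts in genes under 1000 bases to those in longer genes as a covariate, and pseudogene counts added to their parents. Scaling on the ribosomal proteins alone and the curve on transcript length were added after the data were seen.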

Additional observations from a re-analysis of the deposited data

Results flagged for a closer look

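In 114 groups of 4 libraries, the highest or lowest library was compared with the others by Dixon's criterion, and 9 groups had a library that stood apart. Each group was a named gene, or the share or median level of the ribosomal protein genes, in 1 fraction. Chance alone marks about 1 in 20 independent groups. These groups share libraries, and some genes were named after their values were seen, so that rate does not apply here.

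In ICAM1high replicate 1, Rps27 stood at 290 CPM, against 116 to 128 in the other ICAM1high libraries. Rps9 stood at 869 CPM there, against 449 to 514, and Rps24 at 303 CPM, against 134 to 162. The translation factor genes Eif1, at 703 CPM against 366 to 416, and Tpt1, at 1330 CPM against 768 to 839, were also highest in that library. ICAM1high replicate 1 was the library with the highest level of 65.1% of the ribosomal protein genes, and the part of transcript length in these values was not tested.

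In ICAM1low replicate 4, Rpl3l stood at 6.55 CPM, against 1.84 to 2.5 in the other ICAM1low libraries, and Rps10 at 6.49 CPM, against 2.63 to 3.28. In ICAM1low replicate 1, Rpl3 stood at 84.3 CPM, against 137 to 144. The ribosome biogenesis gene Sbds stood at 53.2 CPM in ICAM1high replicate 4, against 61.8 to 62.6 in the other ICAM1high libraries.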

How the results depend on the processing

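The number of ribosomal protein genes higher in ICAM1high, 4 as reported, was 58 with library totals, 70 with the short-to-long ratio as a covariate, 14 with the length curve on deposited length and 26 on transcript length, 11 without both ICAM1high replicate 1 and ICAM1low replicate 4, 13 in replicates 1 and 2 alone, and 0 in replicates 3 and 4 alone and with scaling on the family alone. The number lower, 2 as reported, was 1 with a filter of 50 counts in 4 libraries and with the short-to-long covariate, 0 in replicates 1 and 2 alone, 4 without both libraries and 4 with the curve on transcript length. With scaling on the family alone it was 3, as it was with RLE factors and with DESeq2. Of all genes, 42.4% were called with RLE factors, 47.2% with DESeq2 and 50% with the filter of 50 counts. The share was 54.5% with library totals, 49% with the short-to-long covariate, and 47.8% and 49.2% with the curves on deposited and transcript length. It was 50% without both libraries, 21.8% and 22.4% in the pairs alone, and 17.3% with scaling on the family. The median of 0.203 was 0.900 with library totals, 0.889 in replicates 1 and 2 alone, 1.256 with the short-to-long covariate and -0.439 in replicates 3 and 4 alone. Leaving out each library in turn gave 1 to 12 higher genes, 2 to 5 lower genes and a median of -0.090 to 0.461. Among named genes, 94 values over 30 genes had another sign than reported, 88 of them with no call in either fit. With a call in at least 1 of the fits, the sign reversed with the short-to-long covariate for Rplp2 (1.341), Rps27 (1.011), Rpl10 (0.930) and Fau (0.276), and with library totals for Rpl10 (0.660) and Rps2 (0.655). The causes were not tested.

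Translation factors higher in ICAM1high, 12 as reported, numbered 38 with library totals and 25 with the short-to-long covariate, and those lower, 4 as reported, 2 with library totals and 1 in replicates 1 and 2 alone; leaving out each library in turn gave 10 to 15 and 2 to 5. Of 76 biogenesis factors, those higher, 33 as reported, numbered 69 with library totals, 10 in replicates 1 and 2 alone and 7 in replicates 3 and 4 alone. Those lower, 3 as reported, numbered 0, 0 and 1 in the same settings. Leaving out each library gave 17 to 30 higher and 2 to 3 lower, with 31.2% to 43.6% of all genes called. Of all genes, 6818 of 14051 were higher with library totals and 3487 of 14051 with the short-to-long covariate. In replicates 1 and 2 alone 1708 of 14323 were higher, and in replicates 3 and 4 alone 1658 of 14541. The share of biogenesis factors that were higher lay near that of all genes in both pairs.

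Each library number is shared by 1 library of each fraction, but the labels do not say that it marks a mouse, tumour or day. Deviations of same-numbered libraries from their group means correlated at -0.57, 0.21, 0.18 and -0.30 over all genes. These values cannot decide whether the numbers mark pairs, since the library deviations by transcript length enter them too. The main test used no pairs because the labels state none. With a replicate block, 1 ribosomal protein gene was higher, Rpl3, and 2 were lower, Rpl26 and Rpl3l, with a median of 0.234 and with 30.2% of all genes called. The log2 fold changes of Rpl4, Rpl10a and Rps18 were then 0.64, 0.84 and 0.87, with edgeR adjusted p-values of 0.0572, 0.115 and 0.121. The block left 9 translation factors higher and 2 lower, and 20 biogenesis factors higher and 2 lower. Low totals limit the values of the genes under 10 CPM, whose fold changes rest on few reads per library.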
